A study of Danio rerio with 8 samples.

Results

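The proteasome genes of the zebrafish larva are the subject here: every gene whose symbol begins with psma, psmb, psmc, psmd, psme or psmf followed by a digit. The symbol table gave 56 such genes, of which 50 had a row among the 32434 genes of the count table and 49 had enough counts to be tested among 27050. psma1, psmb11, psmd4, psmd7 and both genes named psmd2 are not analysed here. The 50 genes fall into 9 core alpha, 7 core beta, 6 immune beta and 20 regulatory genes, 6 activator and inhibitor genes, and 2 partner genes. Of the 20 regulatory genes, 3 encode assembly chaperones and not subunits. The symbols of the 2 partner genes, psmc3ip and psme3ip1, match although their proteins are partners of a subunit and not subunits.

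The proteasome is the barrel-shaped protease that degrades proteins tagged with ubiquitin. Its core is built from stacked rings of alpha subunits, which form the gate, and beta subunits, some of which carry the catalytic sites. A regulatory particle of ATPases (psmc genes) and non-ATPase subunits (psmd genes) binds, unfolds and feeds in the tagged proteins, while the psme genes encode other caps. In immune cells and under interferon, the catalytic beta subunits are exchanged for immune forms, which change the peptides made for MHC class I molecules.

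Polyadenylated RNA of zebrafish larvae at 5 days post fertilization (dpf) was sequenced from 4 seph mutant and 4 wild type samples. The mutated gene encodes selenoprotein H, a selenium-containing nuclear protein now called selenoh, and the series title links it to redox balance and p53. The labels give no allele, strain, clutch or number of larvae per sample, and nothing says that samples of a genotype came from separate spawnings, so the p-values may reflect technical spread alone. Libraries held 53153770 to 55273388 counts in seph mutants and 51246749 to 56409917 in wild type. Levels are given as CPM, counts scaled to the library's size. A count of 0 still allows 3 counts, worth 0.0532 to 0.0588 CPM here. The targeted gene itself, selenoh (ENSDARG00000093022), had 1, 20, 0 and 0 counts in seph mutants, against 854, 855, 1225 and 737 counts in wild type. Its mean was 0.543% of wild type (two-sided exact permutation test, p = 0.0286, the lowest p this design can reach). Mutant replicate 2 set that value, which was 0.035% without it. Another gene ID of the table held the same counts as selenoh, so its reads may have been counted for both. Of 22 tested markers of larval tissues, 2 were called higher and 8 lower in seph mutants. Of all genes tested, 8.65% were called higher and 8.45% lower. The lower markers included the pancreatic protease genes prss1, at a log2 fold change of -7.12, and ctrb.1, at -7.28 (edgeR adjusted p = 3.23e-05 and 3.14e-05).

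The replicate 3 libraries stood apart from the others of their own genotype. On the second principal component of all genes, which held 20.5% of the variance, mutant replicate 3 lay at -59.6 and wild type replicate 3 at -71.0, while the other 6 libraries lay between 15.7 and 27.4. Proteasome genes took part in this. Wild type replicate 3 had the highest level of the 4 wild type libraries in 42 of 49 tested genes. Mutant replicate 3 had the highest of the 4 mutant libraries in 41 of 49. Over all 27050 genes tested, these counts were 9613 and 8852. The median gap between replicate 3 and the mean of its own group's other libraries was 0.25 on the log2 scale for the mutants and 0.66 for wild type, against 0.004 and 0.009 over all genes. The labels do not say what sets these libraries apart, and results are given with and without them. Since they were singled out from these same expression values, p-values without them may be too small.

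Across all 8 libraries the proteasome genes leaned upwards in seph mutants, but few passed the test. The log2 fold change was above 0 in 44 of 49 tested genes, or 89.8%, against 50.8% of all genes, and its median was 0.40 against 0.008. Most of these genes moved together from library to library, as replicate 3 shows. Counts of members, here and below, are therefore not counts of independent observations. With edgeR's quasi-likelihood test and an adjusted p under 0.05 over all genes, psme1, psme2 and psma6l rose and 1 of the psme4 genes fell. Those 3 rises are 6.12% of the genes tested, against a background of 8.65% of all genes called higher and 8.45% called lower, or 17.1% called either way. In whole larvae, fewer cells of a type and less RNA per cell cannot be told apart.

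When both replicate 3 libraries were left out, 37 of the 49 genes, or 75.5%, were called higher and 1 lower, with a median log2 fold change of 0.49 against 0.02 over the genes tested in both fits. The background was then 15.5% called higher, 14.6% lower and 30% either way. All 4 genes called with 8 libraries were called in the same direction. Leaving out wild type replicate 3 alone gave the same 37 calls, whereas leaving out mutant replicate 3 alone left 3. Between mutant replicate 3 and wild type replicate 3 the median log2 difference of the 49 genes was 0.13, from -0.50 to 0.65, against -0.007 over all genes.

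**Figure D1:**
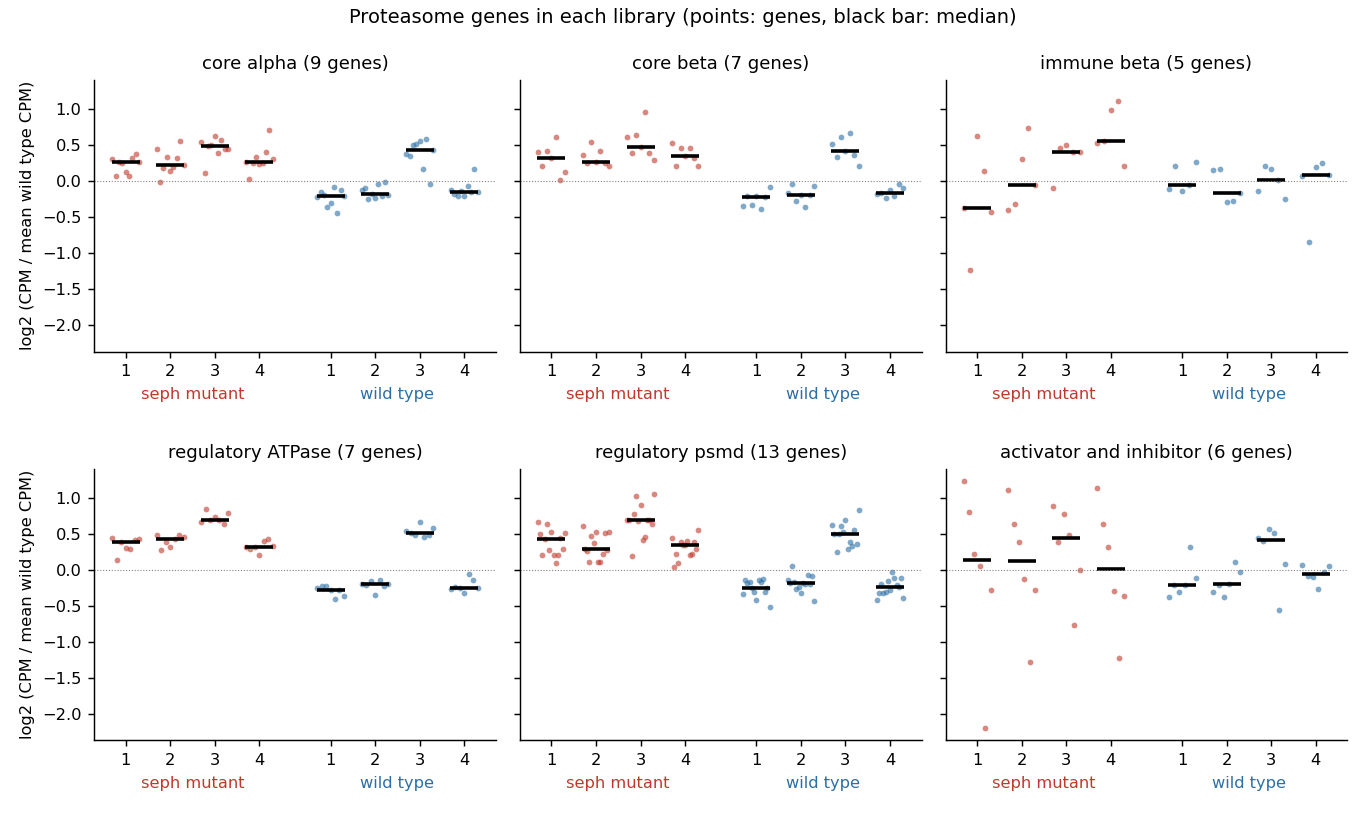
Level of every tested proteasome gene in every library, as log2 of its CPM over its own mean in wild type, with seph mutants in red and wild type in blue, and a black bar at the median of the genes. Core and regulatory medians lie between 0.23 and 0.70 in all 4 mutants, between -0.27 and -0.15 in wild type replicates 1, 2 and 4, and between 0.42 and 0.52 in wild type replicate 3.

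Summed over genes, the same shift showed in the share of each library taken up by proteasome transcripts. The 33 constitutive core and regulatory subunit genes, which leave out the assembly chaperones, held 0.212%, 0.209%, 0.260% and 0.210% of the counts in seph mutant replicates 1 to 4. They held 0.131%, 0.134%, 0.235% and 0.144% in wild type replicates 1 to 4. The means were 0.223% ± 0.0248 in seph mutants and 0.161% ± 0.0496 in wild type (SD, n = 4 each). Wild type replicate 3 lay among the mutants, above 3 of the 4, so the groups overlap, while the other 3 wild type libraries lay below every mutant. The shares of the core alpha, core beta and regulatory genes each had this order. These shares use total counts, not the scaled library sizes behind the CPM. The log2 ratio of mutant to wild type mean share was 0.37 for core alpha and 0.45 for core beta. With scaled sizes it was 0.31 and 0.39. The 6 activator and inhibitor genes together held 0.0151% ± 0.0024 in seph mutants and 0.0155% ± 0.0021 in wild type, and the immune beta genes 0.00107% ± 0.00030 and 0.00088% ± 0.00005. The activator sum joins psme1 and psme2, which rose, with a psme4 gene that fell, so its similar means do not show unchanged genes.

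**Figure D2:**
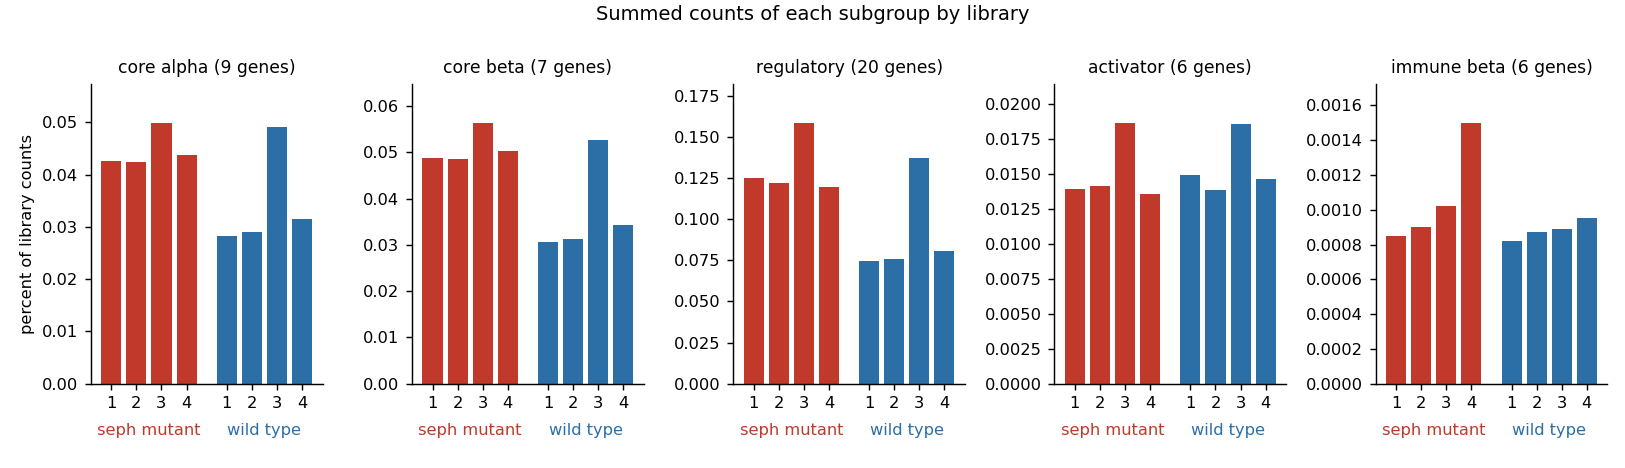
Summed counts of each group of proteasome genes as a percent of the library's counts, with 1 bar per library and seph mutants in red to the left of wild type in blue. Core and regulatory bars are high in all 4 mutants and in wild type replicate 3, while activator bars differ little between the groups and the immune beta bar of mutant replicate 4 is the highest of its panel at 0.00150%. The activator bars sum genes that changed in opposite directions.

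The core alpha genes encode the outer rings that guard the entry to the barrel. psma6l (ENSDARG00000043899), named for its likeness to psma6, was the alpha gene called with 8 libraries. It had 5.96, 6.74, 6.22 and 7.48 CPM in seph mutants, against 4.18, 4.51, 4.44 and 5.13 CPM in wild type. Every mutant was above every wild type library, replicate 3 included. This gave a log2 fold change of 0.53 ± 0.13 (SE, edgeR adjusted p = 0.020). The call was lost when mutant replicate 2, mutant replicate 4, wild type replicate 1 or wild type replicate 2 was left out, with adjusted p values of 0.056, 0.055, 0.067 and 0.065, at log2 fold changes between 0.46 and 0.52.

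The other 8 alpha genes did not pass with 8 libraries, and all had log2 fold changes above 0, with adjusted p values up to 0.80. psma2a was the flattest. It had 32.7, 31.1, 33.8 and 31.9 CPM in seph mutants, against 27.9, 29.2, 39.9 and 27.6 CPM in wild type, where replicate 3 was the highest of all 8 libraries. Its log2 fold change was 0.06 ± 0.13 (SE, adjusted p = 0.80), and 0.18 without the replicate 3 libraries (adjusted p = 0.10). Without those libraries the remaining 8 alpha genes were called higher, the lowest log2 fold change being 0.24 for psma6 ENSDARG00000013966 and the highest 0.61 for psma6 ENSDARG00000019398. In that fit 15.5% of all genes were called higher and 14.6% lower, a background for every count of calls without replicate 3 below. The pair named psma6, and psma2 with psma2a, are similar genes between which the counting may have divided reads. psma8, which the symbol table also lists under the older name psma7, had 92.4, 90.5, 105 and 95.9 CPM in seph mutants, against 67.1, 67.8, 104 and 69.7 CPM in wild type (log2 fold change 0.32 ± 0.15, adjusted p = 0.19).

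Among the 7 core beta genes, none was called with 8 libraries by edgeR and 4 were higher at an unadjusted p under 0.05. The DESeq2 Wald test called none and limma-voom with sample weights called 7. Those weights were estimated from these same expression values, so limma-voom calls are not a separate check on replicate 3. Of all 27050 genes tested, 4358 were higher and 4276 lower at that unadjusted p. The Wald test called 3090 higher and 3319 lower, and limma-voom 5039 and 4765. These backgrounds also apply to the groups and lists that follow. The catalytic subunits are psmb5, psmb6 and psmb7, which cut after different kinds of amino acid: psmb5 after hydrophobic, psmb6 after acidic and psmb7 after basic residues. psmb5 (ENSDARG00000075445) had the largest difference of the beta genes. It had 78.0, 68.0, 99.04 and 69.9 CPM in seph mutants, against 38.8, 39.6, 80.7 and 43.8 CPM in wild type. Each mutant exceeded wild type replicates 1, 2 and 4, and wild type replicate 3 exceeded 3 of the mutants. Its log2 fold change was 0.63 ± 0.24 (SE, edgeR adjusted p = 0.11) with 8 libraries and 0.82 without the replicate 3 pair (adjusted p = 0.000725).

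psmb6 had 42.0, 49.5, 54.4 and 52.0 CPM in seph mutants, against 35.6, 36.4, 53.4 and 40.3 CPM in wild type. psmb7 had 92.7, 97.9, 104 and 98.4 CPM in seph mutants, against 80.1, 81.0, 98.5 and 79.4 CPM in wild type. In both genes wild type replicate 3 lay within the range of the mutants and the other 3 wild type libraries below it. The log2 fold changes were 0.26 ± 0.15 for psmb6 and 0.21 ± 0.10 for psmb7 (SE, edgeR adjusted p = 0.27 and 0.18), the smallest of the beta genes beside psmb2 at 0.26. Without the replicate 3 libraries all 7 beta genes were called higher, from 0.26 for psmb7 to 0.82 for psmb5.

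The 7 ATPase genes (psmc1 to psmc6 and psmc1b) encode the ring that unfolds substrates and pushes them into the core. They moved within a narrow band, with log2 fold changes from 0.41 for psmc3 to 0.52 for psmc6. None was called with 8 libraries by edgeR, 5 were higher at an unadjusted p under 0.05, the Wald test called 1 and limma-voom 7. psmc6 (ENSDARG00000037038) had 77.7, 79.2, 99.9 and 72.3 CPM in seph mutants, against 44.7, 50.4, 86.3 and 48.3 CPM in wild type (0.52 ± 0.21 SE, edgeR adjusted p = 0.13). psmc3 had 81.6, 82.4, 110.3 and 76.5 CPM in seph mutants, against 54.7, 51.7, 105 and 52.8 CPM in wild type (0.41 ± 0.24 SE, adjusted p = 0.28). In both, replicate 3 was the highest library of its genotype, and the 3 other wild type libraries were below every mutant. Without replicate 3 all 7 were called higher, at 0.46 for psmc1b up to 0.68 for psmc6.

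The 10 non-ATPase genes include scaffold subunits (psmd1, psmd3, psmd6, psmd8, both psmd11 genes, psmd12 and psmd13), the ubiquitin receptor psmd4b and psmd14, the enzyme that removes ubiquitin chains before a protein enters. Again none was called with 8 libraries by edgeR, 6 were higher at an unadjusted p under 0.05, the Wald test called 1 and limma-voom 10. psmd8 (ENSDARG00000020454), a subunit of the lid, had the largest difference of the regulatory genes. It had 60.2, 60.7, 87.3 and 61.8 CPM in seph mutants, against 29.5, 31.1, 75.3 and 32.2 CPM in wild type. Within each genotype 3 libraries lay close together and replicate 3 well above them. Its log2 fold change was 0.68 ± 0.30 (SE, edgeR adjusted p = 0.16, 95% interval -0.00 to 1.37) with 8 libraries and 0.98 without replicate 3 (adjusted p = 0.00016).

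Without the replicate 3 libraries all 10 non-ATPase genes were called higher. psmd14 had the smallest log2 fold change of the 10, 0.29 (adjusted p = 0.019), with 42.9, 43.3, 55.5 and 46.4 CPM in seph mutants, against 35.7, 35.2, 52.7 and 37.2 CPM in wild type. The genes named psmd11 are a pair of copies between which reads may have been divided, and both were called, at 0.78 for ENSDARG00000005134 and 0.57 for ENSDARG00000060150. Groups that do not overlap were found for all 33 core and regulatory subunit genes without replicate 3, where the background was 23.9% of all genes with every mutant above every wild type library. With 8 libraries psma6l was the 1 gene of the 33 with that order, where the background was 11%.

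The symbols psmd5, psmd9 and psmd10 belong to chaperones that help to assemble the base of the regulatory particle and leave it afterwards. psmd9 had 9.94, 10.4, 9.92 and 10.05 CPM in seph mutants, against 7.63, 9.01, 10.3 and 7.58 CPM in wild type. Its mutant libraries were close together and wild type replicate 3 lay among them. It had a log2 fold change of 0.22 ± 0.12 (SE, edgeR adjusted p = 0.25), and of 0.32 without replicate 3 (adjusted p = 0.056), so psmd9 was the regulatory gene not called there. psmd10 and psmd5 were called without replicate 3, at 0.87 and 0.51.

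**Figure D3:**
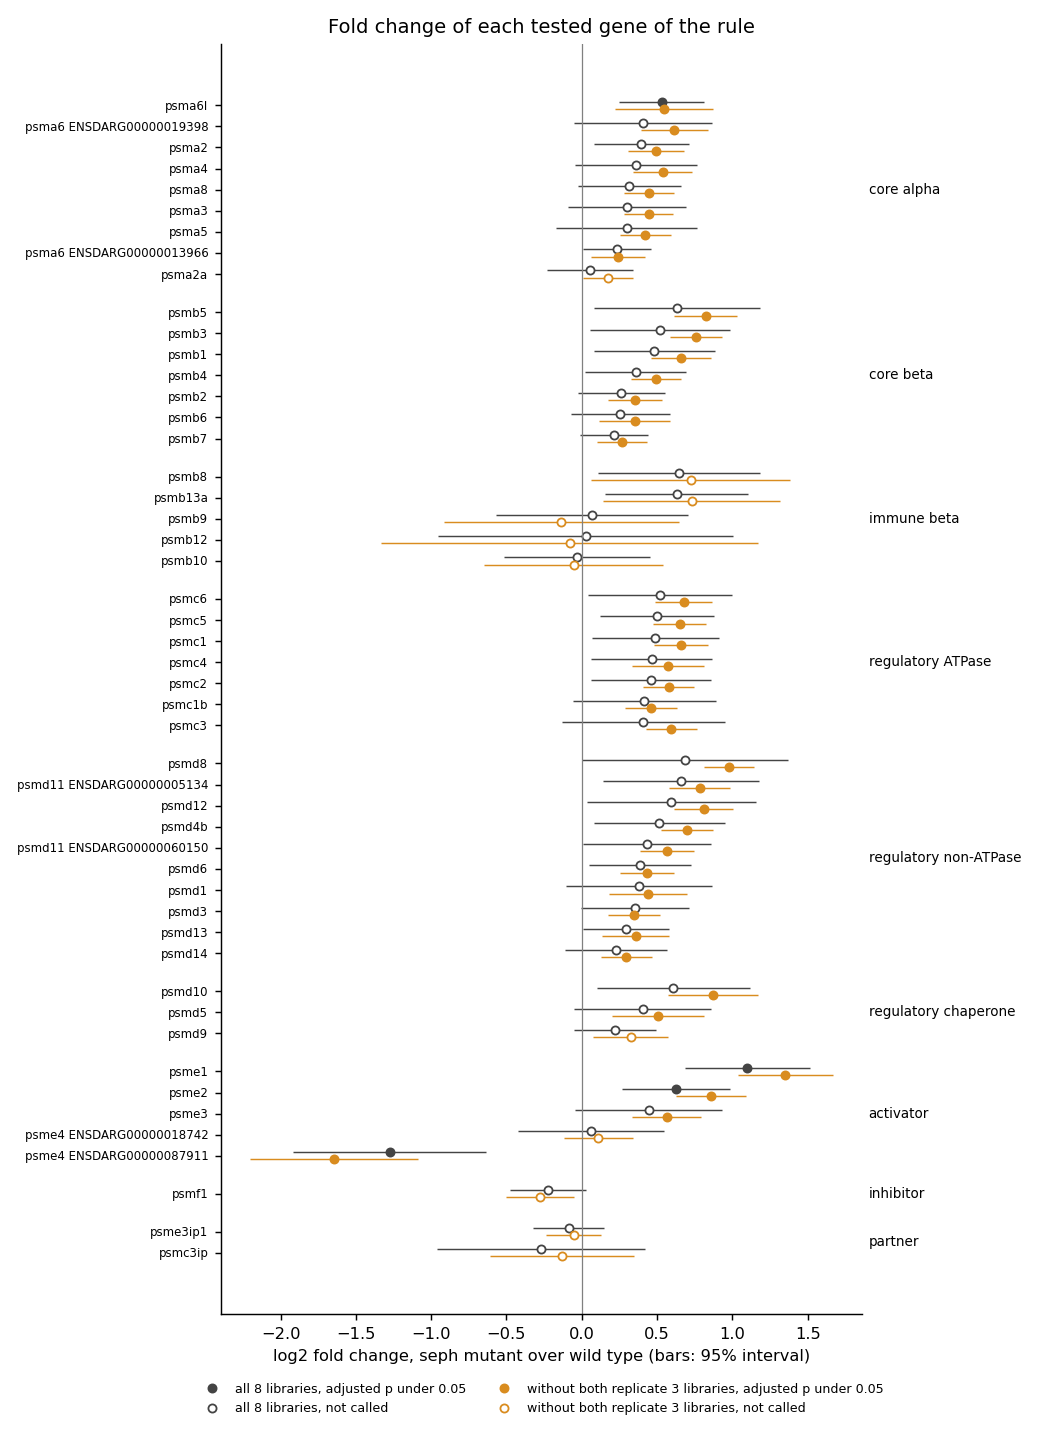
Log2 fold change of seph mutant over wild type for each of the 49 tested genes with 95% intervals, from all 8 libraries in grey and without both replicate 3 libraries in orange, filled where the adjusted p was under 0.05. Core and regulatory genes lie to the right of 0 in both. Without replicate 3 their points are filled apart from psma2a and psmd9, while no point of the immune beta genes is filled.

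Of the activators, psme1 and psme2 rose, and 1 of the genes named psme4 fell, while psme3 and the other psme4 gene did not pass. psme1 and psme2 encode the PA28 alpha and beta chains, which form a cap that interferon induces in mammals and that opens the core without ATP. psme1 (ENSDARG00000002165) had 14.1, 12.96, 11.1 and 13.2 CPM in seph mutants, against 4.64, 4.88, 8.18 and 6.29 CPM in wild type. Every mutant was above every wild type library, with replicate 3 the lowest mutant and the highest wild type. psme1 thus rose by 1.099 ± 0.19 on the log2 scale (SE, edgeR adjusted p = 0.0046), or 2.14-fold, and was called in all 19 alternatives tried.

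psme2 (ENSDARG00000033144) had 14.3, 12.8, 10.8 and 12.8 CPM in seph mutants, against 7.14, 7.11, 10.9 and 7.76 CPM in wild type. The groups met at replicate 3, where the mutant and wild type libraries were nearly equal. psme2 rose by 0.63 ± 0.16 on the log2 scale (SE, edgeR adjusted p = 0.027), and by 0.86 without the replicate 3 pair (adjusted p = 0.00092). The call was lost when any 1 of the 6 libraries outside replicate 3 was left out, with adjusted p values from 0.060 to 0.090.

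psme3 encodes PA28 gamma, the nuclear member of that family. It had 25.8, 28.8, 37.9 and 27.6 CPM in seph mutants, against 17.8, 17.1, 32.7 and 20.7 CPM in wild type. It thus had the pattern of the core and regulatory genes, with replicate 3 highest in both genotypes, and not that of psme1 and psme2, where mutant replicate 3 was the lowest mutant. Its log2 fold change was 0.44 ± 0.22 (SE, edgeR adjusted p = 0.19) with 8 libraries and 0.56 without replicate 3 (adjusted p = 0.0049).

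psme4 encodes PA200, a large nuclear cap linked to histone breakdown in mammalian testis and after DNA damage. The gene with the ID ENSDARG00000087911 had 12.1, 22.9, 32.8 and 23.8 CPM in seph mutants, against 69.1, 60.1, 37.9 and 54.7 CPM in wild type. All mutants were below all wild type libraries, an order that 11.1% of all genes had, and replicate 3 was the highest mutant and the lowest wild type library. Its log2 fold change was -1.28 ± 0.28 (SE, edgeR adjusted p = 0.016), and -1.65 without replicate 3 (adjusted p = 0.0023). The gene with the ID ENSDARG00000018742 had 59.7, 52.5, 80.1 and 47.0 CPM in seph mutants, against 49.7, 50.3, 81.5 and 47.5 CPM in wild type, which overlap throughout (0.06 ± 0.22 SE, adjusted p = 0.87, 95% interval -0.42 to 0.55). Of the counts of both genes, ENSDARG00000087911 held 16.8%, 30.3%, 29.0% and 33.7% in seph mutants, against 58.2%, 54.5%, 31.7% and 53.5% in wild type. Mutant replicate 4 was above wild type replicate 3 in this share. Reads that match both copies may have been divided between them.

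psmf1, the gene of the inhibitor PI31, had 7.78 to 9.99 CPM in seph mutants and 9.26 to 10.6 CPM in wild type (-0.22 ± 0.11 SE, edgeR adjusted p = 0.21), and without replicate 3 every mutant was below every wild type library, as for 22.9% of all genes (-0.28, adjusted p = 0.065). The partner genes psmc3ip, whose protein works in meiotic recombination, and psme3ip1, whose protein binds PA28 gamma, had log2 fold changes of -0.27 and -0.09 (adjusted p = 0.59 and 0.62).

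**Figure D4:**
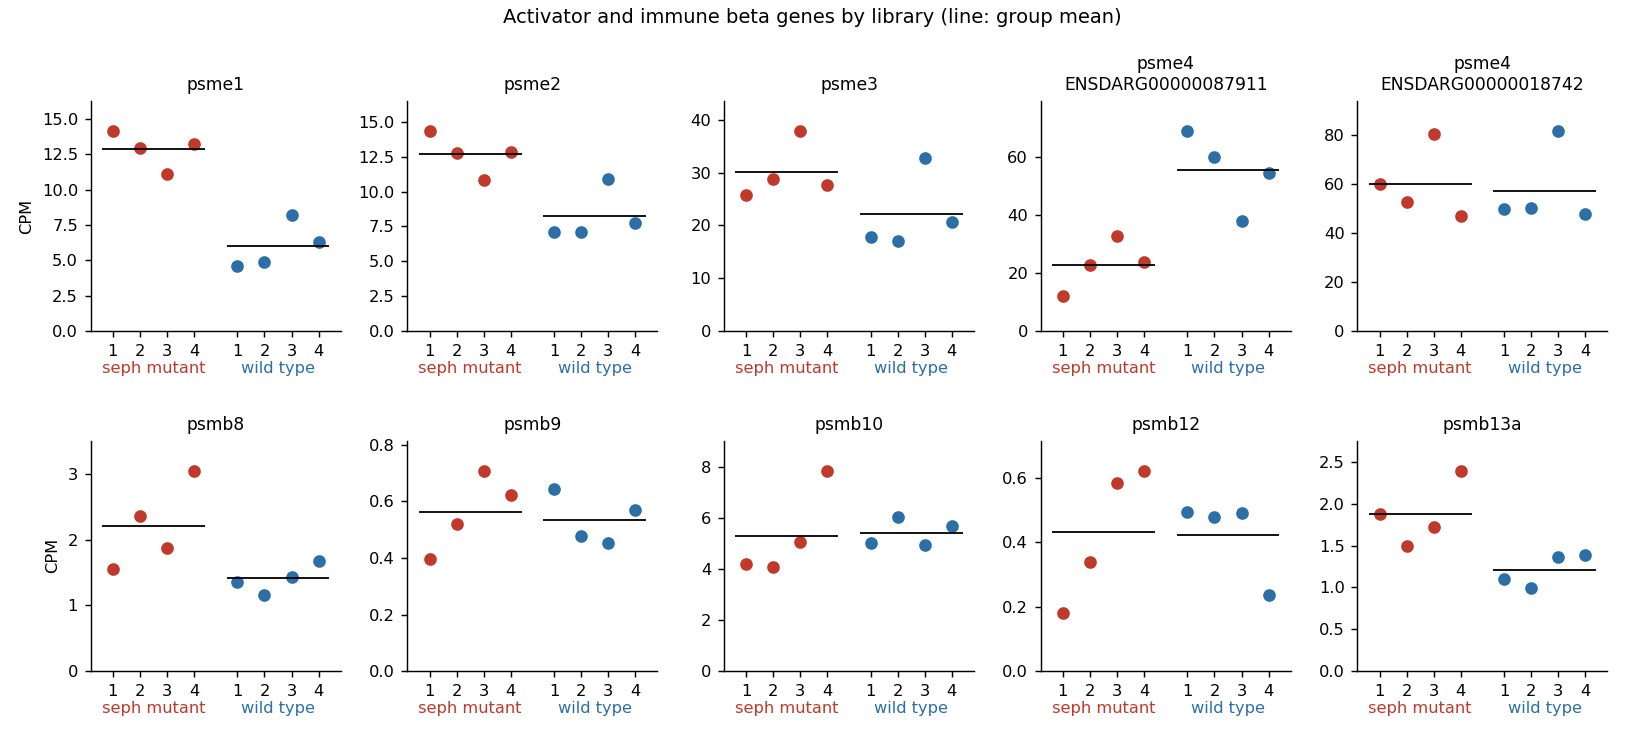
CPM of the 5 activator genes in the upper row and of the 5 tested immune beta genes in the lower row, with 1 point per library, seph mutants in red to the left of wild type in blue, and a line at each group's mean. psme1 is higher and psme4 ENSDARG00000087911 lower in all mutants, while the points of psmb9, psmb10 and psmb12 overlap between the groups.

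None of the immune beta genes was called by edgeR with 8 libraries, and none without replicate 3, although 2 of the 5 tested were higher at an unadjusted p under 0.05, the Wald test called 1 and limma-voom 2. psmb8, psmb9 and psmb10 encode the immune forms that replace the catalytic subunits psmb5, psmb6 and psmb7. psmb12 and psmb13a are further immune-type genes of fish, and psmb11 is the thymus form in mammals. Counts were low: 61 to 167 in a library for psmb8, 52 to 131 for psmb13a, 229 to 430 for psmb10, 22 to 40 for psmb9 and 10 to 34 for psmb12.

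psmb13a (ENSDARG00000001656) had 1.88, 1.502, 1.72 and 2.40 CPM in seph mutants, against 1.098, 0.994, 1.36 and 1.39 CPM in wild type. It was the 1 immune beta gene with every mutant above every wild type library, an order that 11% of all genes had. Its log2 fold change was 0.63 ± 0.21 (SE, edgeR adjusted p = 0.072). It passed with the Wald test (0.041) and with limma-voom (0.016). psmb8 (ENSDARG00000001303) had 1.55, 2.36, 1.88 and 3.06 CPM in seph mutants, against 1.36, 1.17, 1.43 and 1.69 CPM in wild type. Mutant replicate 1 lay below wild type replicate 4, so the groups overlap (0.65 ± 0.24 SE, edgeR adjusted p = 0.095), and limma-voom alone of the other tools called it (0.032).

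psmb10 had 4.19, 4.09, 5.07 and 7.87 CPM in seph mutants, against 5.02, 6.06, 4.93 and 5.68 CPM in wild type. Mutant replicate 4 was the highest and mutant replicates 1 and 2 the lowest of the 8 libraries. psmb9 had 0.397, 0.518, 0.709 and 0.622 CPM in seph mutants, against 0.644, 0.478, 0.453 and 0.568 CPM in wild type. psmb12 had 0.181, 0.340, 0.585 and 0.622 CPM in seph mutants, against 0.492, 0.478, 0.490 and 0.235 CPM in wild type. For these 3 genes the groups overlapped and the 95% intervals of the log2 fold change were wide, from -0.51 to 0.45 for psmb10, -0.57 to 0.70 for psmb9 and -0.96 to 1.006 for psmb12. The sign of the log2 fold change of all 3 changed with the processing. psmb11b had 0, 1, 3 and 0 counts in seph mutants, against 3, 11, 2 and 1 counts in wild type, with wild type replicate 2 highest at 0.210 CPM and the other 7 libraries at or under 3 counts, and was not tested.

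The balance of immune to constitutive subunits was read as the ratio of counts within a library, which is not corrected for gene length. psmb8 counts were 1.99%, 3.47%, 1.90% and 4.37% of psmb5 counts in seph mutants, against 3.52%, 2.95%, 1.77% and 3.85% in wild type. psmb9 counts averaged 1.12% ± 0.16 of psmb6 counts in seph mutants and 1.35% ± 0.39 in wild type (SD, n = 4 each). psmb10 counts averaged 5.40% ± 1.75 of psmb7 counts in seph mutants and 6.48% ± 1.11 in wild type. psmb13a counts averaged 1.91% ± 0.41 of psmb7 counts in seph mutants and 1.43% ± 0.22 in wild type. The groups overlapped in all of these pairs.

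In the gene order of the zebrafish assembly GRCz12tu, psmb13a, psmb8, psmb12 and psmb9 neighbour each other, while psmb10 and psmb11b lie elsewhere. Of the 20 genes flanking the first cluster, 3 were called higher and none lower with 8 libraries, namely rab25a and the tapasin genes tapbp.1 and tapbp.2, whose proteins load peptides on MHC class I. tapbp.1 had 4.86, 7.46, 3.44 and 6.28 CPM in seph mutants, against 2.18, 2.14, 2.68 and 3.19 CPM in wild type (1.11 ± 0.25 SE, edgeR adjusted p = 0.016). The calls were lost without wild type replicate 1 or 2 for tapbp.1 (adjusted p = 0.055 and 0.056), and without mutant replicate 2 or wild type replicate 2 for tapbp.2 (0.051 and 0.059). Around psmb10, 11 of 19 tested neighbours were higher and 1 lower. Of the higher ones, 7 were members of the tandem ms4a17a family, whose similar copies may share reads. ms4a17a.4 had a log2 fold change of 1.79 ± 0.15 (SE, adjusted p = 0.00017), beside -0.03 for psmb10. Around psmb11b, 3 of 20 were higher and 2 lower. The background over all genes was 8.65% higher and 8.45% lower, and nothing particular to the neighbours of psmb11b or of the first cluster is read from these counts.

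Genes that build or assist the proteasome outside the psm symbols were followed in fixed lists. Of 4 tested assembly chaperones none was called with 8 libraries by edgeR or the Wald test and 2 by limma-voom. At an unadjusted p under 0.05, 1 was higher, and pomp and ecpas were called higher without replicate 3. pomp, which guides the closing of the core, had 39.1, 39.1, 41.4 and 37.6 CPM in seph mutants, against 22.9, 26.5, 42.4 and 26.0 CPM in wild type (0.42 ± 0.18 SE, edgeR adjusted p = 0.14, and 0.62 without replicate 3). Of 13 bound deubiquitinases, ubiquitin receptors and shuttle factors, none was called with 8 libraries by edgeR or the Wald test. At an unadjusted p under 0.05, 3 were higher, and limma-voom and the fit without replicate 3 each called 4 higher and 1 lower. usp14, which trims ubiquitin chains on the regulatory particle, had 43.1, 43.8, 54.1 and 42.4 CPM in seph mutants, against 25.2, 24.5, 47.2 and 26.0 CPM in wild type. Both genes thus had the pattern of psmb5 and psmd8, with wild type replicate 3 beside the mutants. The receptor adrm1 had 50.9, 55.2, 63.8 and 57.1 CPM in seph mutants, against 50.01, 51.7, 60.1 and 46.7 CPM in wild type (0.12 ± 0.11 SE, adjusted p = 0.48).

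Of 9 ubiquitin and ubiquitin-activating genes, 2 rose with 8 libraries and none fell, against 8.65% higher and 8.45% lower over all genes. Both are polyubiquitin genes named ubb, similar copies that may share reads. ubb ENSDARG00000093313 had 1394, 1593, 1266 and 1264 CPM in seph mutants, against 758, 740.1, 944 and 847 CPM in wild type. Every mutant was above every wild type library, replicate 3 included (0.75 ± 0.12 SE, edgeR adjusted p = 0.0045). ubb ENSDARG00000002369 had a log2 fold change of 0.72 ± 0.13 (SE, adjusted p = 0.0056).

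Of 15 factors that control proteasome genes in mammals, or the enzymes that process them, 3 rose and 1 fell. Over all genes, 8.65% were called higher and 8.45% lower. nfe2l1b, a copy of the factor NRF1 that drives new subunit synthesis when the proteasome is blocked in mammals, had 15.4, 14.1, 17.7 and 16.1 CPM in seph mutants, against 7.80, 8.83, 13.6 and 10.8 CPM in wild type (0.62 ± 0.17 SE, edgeR adjusted p = 0.036). This call was lost when any 1 library other than wild type replicate 3 was left out, with adjusted p values from 0.059 to 0.11. The other copy, nfe2l1, had 30.4, 31.0, 29.9 and 30.6 CPM in seph mutants, against 48.0, 41.5, 25.8 and 40.3 CPM in wild type. Its groups overlapped through wild type replicate 3, the lowest library (-0.35 ± 0.17 SE, adjusted p = 0.18), and it was called lower without replicate 3 (-0.50, adjusted p = 0.0049). ngly1, the glycan-removing enzyme that NRF1 needs in order to act, had 23.7, 25.2, 25.5 and 28.9 CPM in seph mutants, against 17.8, 17.95, 21.0 and 17.99 CPM in wild type (0.47 ± 0.10 SE, adjusted p = 0.013, and 0.051 without wild type replicate 2). stat3 rose by 1.22 ± 0.12 on the log2 scale (SE, adjusted p = 0.00040). foxo4 had 16.7, 20.8, 17.7 and 20.6 CPM in seph mutants, against 38.6, 35.5, 24.6 and 41.0 CPM in wild type (-0.88 ± 0.16 SE, adjusted p = 0.0065).

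**Figure D5:**
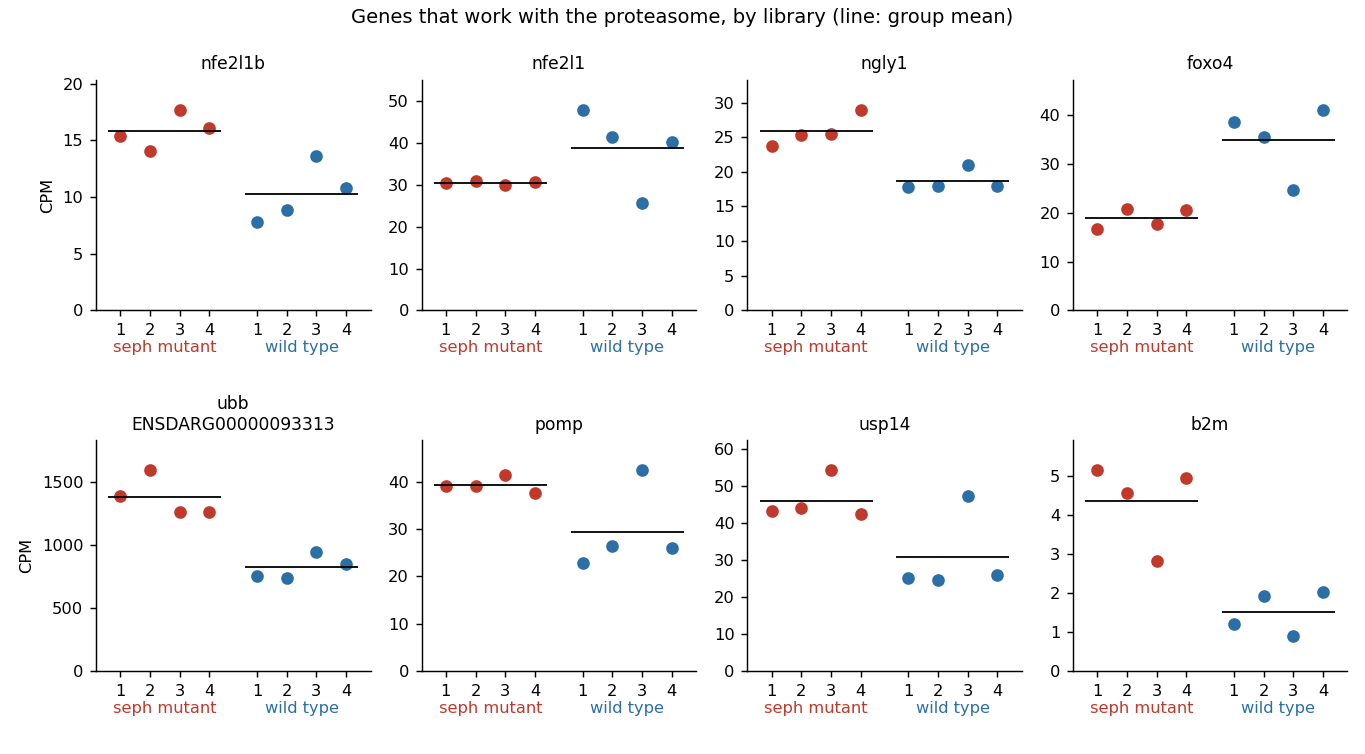
CPM of 8 genes that work with the proteasome, with 1 point per library, seph mutants in red to the left of wild type in blue, and a line at each group's mean. nfe2l1b, ngly1, ubb and b2m are higher and foxo4 is lower in all mutants, while pomp, usp14 and nfe2l1 overlap through wild type replicate 3.

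Of 26 genes linked to antigen presentation, 8 rose and none fell. The list joins genes whose proteins handle peptides with regulators such as irf1a and general chaperones such as canx. The background was 8.65% of all genes called higher and 8.45% lower. b2m, the light chain of MHC class I, had 5.13, 4.56, 2.82 and 4.94 CPM in seph mutants, against 1.19, 1.93, 0.907 and 2.02 CPM in wild type (1.53 ± 0.30 SE, edgeR adjusted p = 0.0084). The peptide transporter gene tap1 had 4.08, 3.68, 2.18 and 3.75 CPM in seph mutants, against 1.95, 2.52, 1.65 and 2.55 CPM in wild type (0.66 ± 0.23 SE, adjusted p = 0.085). canx, the chaperone calnexin of the endoplasmic reticulum, had a log2 fold change of 0.62 ± 0.14 (SE, adjusted p = 0.018). Its call was lost when mutant replicate 1 was left out (adjusted p = 0.055), and likewise for wild type replicates 1, 2 and 4 (0.063, 0.066 and 0.051). The factor genes irf1a and irf1b, which switch on immune beta genes in mammals, had log2 fold changes of 0.28 ± 0.23 and 0.00 ± 0.09 (SE, adjusted p = 0.45 and 0.98).

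Of 30 genes that respond to interferon or, like jak1, carry its signal, 7 rose and none fell. Calls over all genes were 8.65% higher and 8.45% lower. The smallest p values were those of jak1 (0.98 ± 0.09 SE), isg20 (1.08 ± 0.11), irf9 (1.204 ± 0.13) and gbp1 (1.54 ± 0.19). Their edgeR adjusted p values were 0.00025, 0.00046, 0.00068 and 0.0012.

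Markers of immune cells, in which immune proteasomes are best known, also differed between the groups. For the calls given here, the background was 8.65% of all genes higher and 8.45% lower. Macrophage and microglia markers summed to 2075 to 3086 CPM in seph mutants and 968 to 1673 CPM in wild type, with 7 of 23 tested higher and none lower, marco (1.56 ± 0.21 SE, edgeR adjusted p = 0.0015) and irf8 (1.54 ± 0.22 SE, 0.0024) among them. Neutrophil markers summed to 302 to 346 CPM in seph mutants and 149 to 220.4 CPM in wild type, with 5 of 11 higher, such as adam8a (2.04 ± 0.18 SE, 0.00022), and 2 lower, among them lyz (-2.59 ± 0.28 SE, 0.00062). Thymus and lymphoid markers summed to 61.2 to 82.8 CPM in seph mutants and 97.8 to 116 CPM in wild type, with none of 13 higher and 5 lower, rag1 (-2.88 ± 0.23 SE, 0.00012) among them. Abundant genes weigh most in such sums. The median log2 fold change of the tested markers was 0.56 for macrophages and microglia, 0.53 for neutrophils and -0.83 for thymus and lymphoid cells. No gene of these lists was at 0 in every library. The part of cell numbers in the values of psme1, psme2 and the immune beta genes was not tested.

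Of 27 genes of autophagy and the lysosome, the other main route of protein breakdown, 9 rose and 2 fell. The background for these and the ligases below was 8.65% of all genes higher and 8.45% lower. The receptor for ubiquitinated cargo sqstm1 had 93.9, 114, 104 and 96.4 CPM in seph mutants, against 64.0, 66.7, 54.8 and 78.3 CPM in wild type (0.63 ± 0.12 SE, edgeR adjusted p = 0.0089). ulk1a was among the genes that fell, with log2 fold changes between -0.52 and -0.42 over the alternatives tried. The median log2 fold change of the 27 genes was 0.045, with 16 of them above 0. Of 21 genes of ubiquitin ligases and partners, such as those that mark unfolded proteins or p53, 4 rose and 1 fell. mdm2, the ligase of p53 and itself a p53 target, had 235, 230.0, 153 and 181 CPM in seph mutants, against 29.7, 30.0, 29.2 and 33.9 CPM in wild type (2.70 ± 0.16 SE, adjusted p = 2.03e-05). edem1, derl2 and sel1l of endoplasmic reticulum degradation, which hands proteins to the proteasome, rose by 0.66 ± 0.09, 0.61 ± 0.14 and 0.38 ± 0.09 on the log2 scale (SE, adjusted p = 0.0015, 0.016 and 0.017). Without wild type replicate 2 the calls of derl2 and sel1l were lost (adjusted p = 0.062 and 0.069), and that of sel1l also without mutant replicate 2 (0.054) or wild type replicate 1 (0.061).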

How the data were processed

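The deposited table holds read counts per Ensembl gene for 8 samples, 1 column each, with 0 columns of other samples. The tools listed per the submitters' processing notes are HTSeq 0.6.0 and STAR 2.3.0e. The sources used here do not name the genome build, annotation, strand setting or treatment of reads matching several genes, so values of near-identical or overlapping genes are uncertain.

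Counts were filtered with filterByExpr (minimum count 10), scaled with TMM and tested with edgeR 4.0.16 (quasi-likelihood, genotype as the only term, Benjamini-Hochberg over all genes, threshold 0.05) in R 4.3.3. CPM values are TMM scaled, and SEs were derived from the F statistic of each log2 fold change. The steps were tested on simulated counts drawn without any replicate 3 difference. That test says nothing of the calls that depend on replicate 3. The 95% intervals of fold changes include the spread between libraries, while the limit set by a count of 0 covers counting error only. Alternatives used limma 3.58.1, DESeq2 1.42.0, other scalings and filters, and left-out libraries.

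Symbols came from a table that named 20769 of the IDs, and 217 of 266 list entries matched. The members, lists, alternatives and naming rule were chosen with earlier results of these data known. Named were selenoh, all immune beta genes, psmb5, psmb6, psmb7, up to 4 called members and the extremes of each subgroup, up to 4 called genes per list (2 where none was called) and a few fixed partners. Not every gene under this rule is reported here. psma8, psmd14, psmd10, psmd5, psme3, psmf1 and the partner genes, and members given as ends of a range without replicate 3, were added after their values were seen.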

Additional observations from a re-analysis of the deposited data

Results flagged for a closer look

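Among 31 measures looked at in 62 groups of 4 libraries, 17 had a highest or lowest library whose gap to its nearest neighbour, divided by the group's range, exceeded Dixon's 95% critical value for 4 samples, and 11 of these were wild type replicate 3. Chance alone marks about 1 in 20 groups, and the measures are not independent, since the shares sum the same genes.

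Wild type replicate 3 was the high library in psmb5, with a gap of 0.879 of the range, psmb7 (0.920), psma2a (0.868), psmc3 (0.945), psmc6 (0.863) and psmd8 (0.942). It was also high in the shares of the core alpha genes (0.846), the core beta genes (0.835), the regulatory genes (0.902), the 33 core and regulatory subunit genes (0.875) and all 50 proteasome genes (0.884). Mutant replicate 3 was the high library in psmd8, with a gap of 0.941 of the range. It was also high in the shares of the regulatory genes (0.861), the activator genes (0.892), the 33 core and regulatory subunit genes (0.938) and all proteasome genes (0.945). Wild type replicate 4 was the low library in psmb12, with a gap of 0.944, at 0.235 CPM against 0.478 to 0.492 CPM in the other wild type libraries.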

How the results depend on the processing

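The count of proteasome genes called higher, 3 with edgeR and 8 libraries, became 6 with the DESeq2 Wald test, 39 with limma-voom, 37 without the replicate 3 libraries and 1 at a threshold of 0.01, and 1 to 37 when each library was left out in turn, the 37 being without wild type replicate 3. The lower count of 1 became 0 at 0.01. With a replicate block, 36 were higher. The labels do not say whether the numbers pair the samples, and the main fit used genotype only. Deviations from the group means correlated at 0.095, 0.066, 0.46 and 0.24 for numbers 1 to 4. Mutant replicate 2 correlated best with wild type replicate 1 (0.124), the other 3 mutants with their own number. Calls higher without replicate 3, with limma-voom and with the block were 8, 8 and 8 core alpha, 7, 7 and 5 core beta, 19, 19 and 19 regulatory, and 0, 2 and 1 immune beta genes. The Wald test called 2 regulatory and 1 immune beta gene, and at 0.01 core alpha had 0 and the activators 1 higher and 0 lower. Left-out libraries gave 0 to 8 core alpha, 0 to 7 core beta, 0 to 19 regulatory and 1 to 3 activator genes higher. The cause was not tested.

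Over all genes, limma-voom called 5039 higher and 4765 lower, the block 3783 and 3623, the fit without replicate 3 4200 and 3956, the threshold of 0.01 955 and 915, and left-out libraries 1262 to 3667 and 1235 to 3374. The fixed lists had 47 higher and 19 lower: 76 and 37 with limma-voom, 30 lower with the block, 31 lower without replicate 3, 24 and 12 at 0.01, and 27 to 55 and 15 to 31 with left-out libraries. Neighbours of immune beta genes had 17 higher and 3 lower: 8 and 1 at 0.01, and lower counts of 5 with DESeq2 size factors, 6 with the Wald test, 8 with limma-voom, 6 at a minimum count of 50, 7 with the block, 7 without replicate 3 and 1 to 6 with left-out libraries. Library size alone moved the median of all genes to 0.08 and that of the proteasome genes to 0.46.

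Signs turned for genes near 0. psmb10 had a log2 fold change of 0.048 by library size, and left-out libraries gave -0.29 to 0.074, above 0 without mutant replicates 1 or 2 (0.065 and 0.074) or wild type replicate 2 (0.021). psmb12 had -0.31 with limma-voom, -0.049 with the block and -0.080 without both replicate 3 libraries, and left-out libraries gave -0.20 to 0.28, below 0 for mutant replicate 3 (-0.16), mutant replicate 4 (-0.20) and wild type replicate 4 (-0.18). psmb9 had -0.046 with limma-voom and -0.14 without both replicate 3 libraries, and left-out libraries gave -0.064 to 0.20, below 0 for mutant replicate 3 (-0.064) and wild type replicate 3 (-0.0046). psma2a ran from -0.0061, without wild type replicate 4, to 0.20. irf1b had -0.0043 with DESeq2 size factors and with the Wald test and -0.0029 without both replicate 3 libraries, and left-out libraries gave -0.042 to 0.054.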
